A study of Rattus norvegicus with 6 samples.

Results

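Keratins are the intermediate filament proteins of epithelial cells, and their genes were followed here in skeletal muscle RNA of newborn rats. The members were every gene whose symbol starts with Krt and a digit in the rat RefSeq gene table and whose transcript accession names a row of the deposited array table. They came to 43 of the 55 protein-coding keratin symbols of that table, each on 1 of the 26419 rows. Another 12, with Krt6a, Krt10, Krt71, Krt12 and Krt32 among them, matched no row and were not analysed here, nor were 9 keratin pseudogenes. All pups were male Wistar rats, 1 day old, without any treatment, and RNA came from soleus and gastrocnemius muscles. The 3 lower birth weight (LBW) pups lay in the 5th to 25th percentile of birth weight. For the 3 average birth weight (ABW) pups, which served as new born controls, the sample labels give the 25th to 75th percentile and the grouping protocol the 50th to 75th. Each pup was run on 1 single-colour NimbleGen array, and values are log2 units after normalisation, so that a difference of 1 is a 2-fold change.

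Keratin filaments are built from pairs of a type I and a type II chain, and each kind of epithelium uses its own pairs. Basal keratinocytes of the epidermis make Krt5 with Krt14, and the layers above them switch to Krt1 with Krt10. Simple epithelia use Krt8 with Krt18, while the hair shaft and the inner root sheath around it have sets of their own. Muscle fibres are built on desmin rather than on epidermal or hair keratins, although Krt8 and Krt19 have been described at the membrane attachments of striated muscle. The 43 genes were sorted into 11 epidermal, 3 mucosal and corneal, 5 simple epithelial, 7 inner root sheath and companion layer, and 13 hair shaft keratins, with 4 left as other. In the GRCr8 assembly 23 of the 24 type I genes lie on chromosome 10, and Krt18 lies with all 19 type II genes on chromosome 7.

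The 6 arrays had medians between 8.69 and 8.75, and any pair of them correlated at between 0.98 and 0.99 over the 26299 features that remained after rows of a symbol were averaged. All 13 skeletal muscle genes examined averaged above 12.8, with Acta1, the skeletal muscle actin, between 15.15 and 15.41 in every pup. The 43 keratins averaged between 5.07 and 8.05. All of them lay below the median of the features' means (8.70), and 18 lay below the lower quartile (6.21), although brightness also depends on the probes and does not order the genes by transcript number. Bone genes and neutrophil genes stood furthest above their own medians in LBW 1 and LBW 3. In LBW 2 their mean deviations were 0.03 and 0.33. Adipocyte genes stood above their medians in ABW 2 and ABW 3. These values are given below beside the results they touch. Because whole muscle was sampled, fewer cells of a type and less RNA per cell cannot be told apart. At this size, 3 pups against 3, no two-sided exact permutation test can fall below p = 0.1.

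The comparison of LBW with ABW pups bears on whether keratin transcripts in muscle went with birth weight. Among the 43 keratins, 1 passed the threshold of the study's methods, an unadjusted p under 0.05 and a fold of at least 1.5, which 4.27% of all features passed. This gene, Krt26, was higher in LBW pups, and the same criterion took 2.38% of all features in that direction. No keratin passed in the other direction, where 1.89% of all features did. By limma no feature reached an adjusted p under 0.05 (0 of 26299, 0.0%), although 3250 features (12.4%) had an unadjusted p under 0.05, and 2 of these, Krt26 and Krt13, were keratins. The methods' test likewise left 0 features after adjustment. The LBW mean lay below the ABW mean for 31 of the 43 keratins and for 55.6% of all features. Over the keratins the median difference was -0.08, against -0.02 over all features. It was -0.05 without ABW 2, a pup described next, and then 23 of the 43 keratins had the lower mean in LBW pups. Over all 26299 features without ABW 2 the median was -0.02, and 14325 of them had the lower mean in LBW pups.

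**Figure D1:**
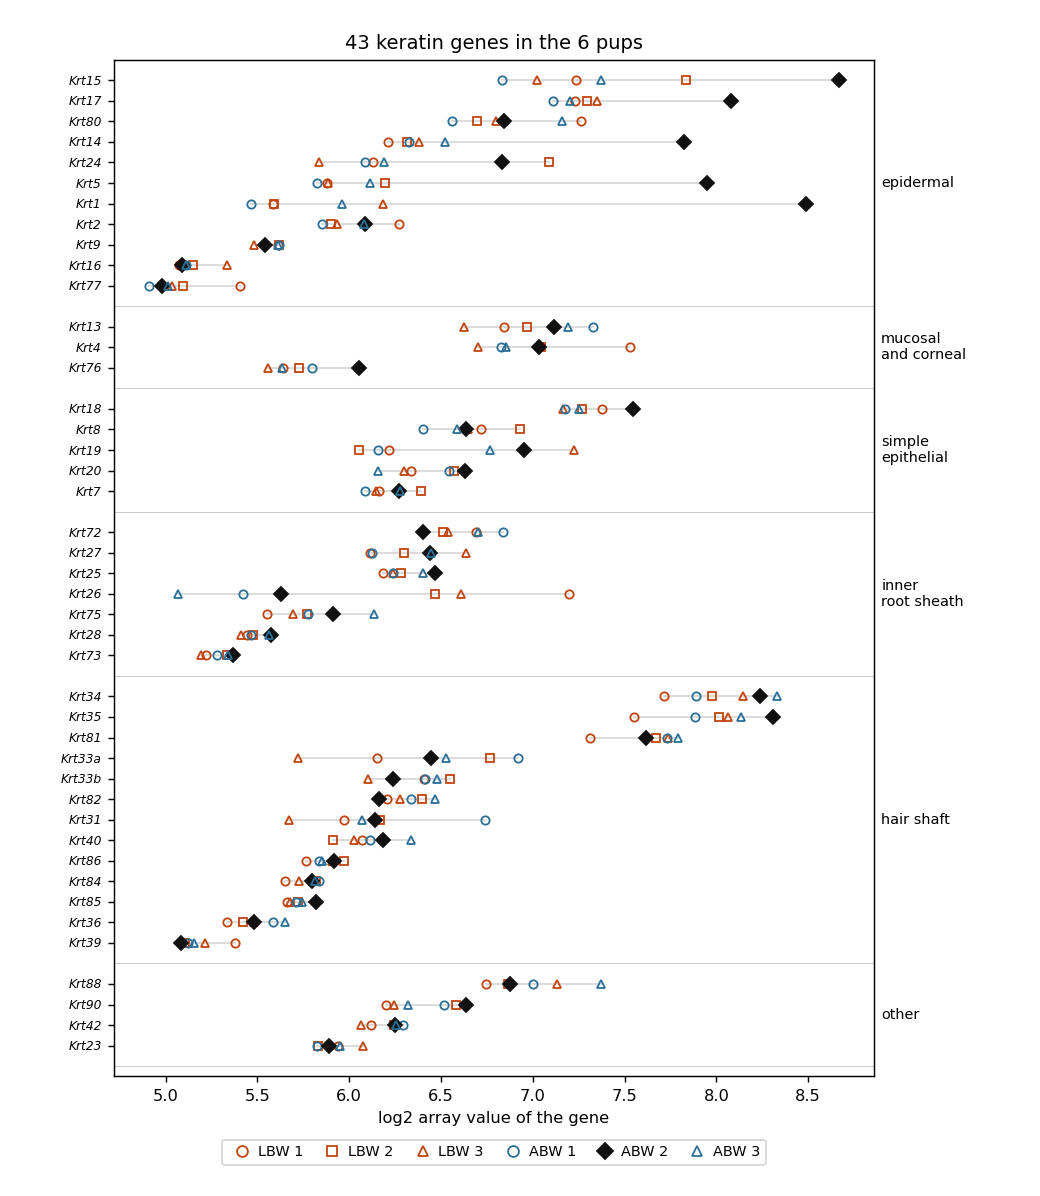
Log2 array value (horizontal axis) of the 43 keratin genes, 1 line a gene, in the 3 LBW pups (orange), ABW 1 and ABW 3 (blue) and ABW 2 (black diamonds), sorted by class. ABW 2 lies to the right of the other pups for Krt1, Krt5, Krt14, Krt15 and Krt17, by at least 1 log2 unit for Krt1, Krt5 and Krt14. The LBW and ABW pups separate widely for Krt26.

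Epidermal keratins showed no difference between LBW and ABW pups that passed the threshold. In 1 control pup, ABW 2, 5 of them were highest, and 3 of these by at least 1 log2 unit. Krt5, the type II keratin of basal keratinocytes, read 5.88, 6.20 and 5.88 in LBW 1 to LBW 3, and 5.83, 7.95 and 6.11 in ABW 1 to ABW 3. Its type I partner Krt14 read 6.21, 6.32 and 6.38 in the LBW pups and 6.32, 7.82 and 6.52 in the ABW pups. Apart from ABW 2 the pups lay within 0.37 of each other for Krt5 and within 0.31 for Krt14. In ABW 2 Krt5 was 3.38-fold and Krt14 2.46-fold above the next highest pup. Krt1, which marks keratinocytes that have left the basal layer, read 5.59, 5.59 and 6.18 in the LBW pups and 5.46, 8.49 and 5.96 in the ABW pups. ABW 2 was 4.94-fold above the next highest pup for this gene. The partner of Krt1, Krt10, was not analysed here.

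Krt15, made by basal keratinocytes and by stem cells of the hair follicle, read 7.23, 7.84 and 7.02 in the LBW pups and 6.83, 8.67 and 7.37 in the ABW pups. Krt17, a keratin of skin appendages and of injured epidermis, read 7.23, 7.30 and 7.35 in the LBW pups and 7.11, 8.08 and 7.20 in the ABW pups. ABW 2 was again the highest, by 0.83 for Krt15 and by 0.73 for Krt17, with LBW 2 next for Krt15. Relative to the median of the other 5 pups it was 7.46-fold higher for Krt1, 4.19-fold for Krt5, 2.82-fold for Krt14, 2.70-fold for Krt15 and 1.80-fold for Krt17. Krt1 and Krt5 are type II genes of chromosome 7, and Krt14, Krt15 and Krt17 are type I genes of chromosome 10.

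The remaining 6 epidermal keratins did not share this pattern. Krt77 read 5.40, 5.10 and 5.04 in the LBW pups and 4.91, 4.98 and 5.01 in the ABW pups, without overlap, yet the difference of 0.21 was small (SE 0.12, limma adjusted p = 0.523). It was 0.099 without LBW 1, the highest pup. Krt2, of the upper epidermal layers, Krt9, of palms and soles, Krt16, Krt24 and Krt80 averaged between 5.14 and 6.89 and had unadjusted limma p-values between 0.428 and 0.957. Of these, Krt24 alone had an excess of over 0.5 in ABW 2, at 0.70, and LBW 2 was higher still with 7.09 against 6.83 in ABW 2. Krt16, which like Krt17 appears in injured epidermis, stayed between 5.07 and 5.33 in all pups.

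Because 1 pup set the ABW means, the group differences of these genes had wide errors. Krt1 averaged 5.79 ± 0.34 (SD, n = 3) in LBW pups and 6.64 ± 1.62 in ABW pups, a difference of -0.85 (SE 0.76, limma adjusted p = 0.694). Without ABW 2 the difference was 0.08 (SE 0.25). Krt5 gave -0.64 (SE 0.53, limma adjusted p = 0.668) with all pups and 0.02 without ABW 2. For Krt14 the values were -0.59 (SE 0.38, limma adjusted p = 0.576) and -0.12. Krt15 and Krt17 gave -0.26 and -0.17, and both turned to positive differences, 0.26 and 0.13, without that pup. Leaving out ABW 2 changed the sign for 4 of the 5 genes. These are the epidermal keratins in which ABW 2 was the highest pup, so leaving it out could only raise their differences.

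ABW 2 was the highest of the 6 pups for 5 of the 11 epidermal keratins and for 15.1% of all features. It exceeded the next pup by at least 1 log2 unit for 15 features in all (0.057%), and 3 of them were Krt1, Krt5 and Krt14. The other 5 pups exceeded the rest by that much for between 5 and 65 features each, with 0 keratins among them. The excess of ABW 2 over the median of the other pups reached 1 for 4 of the 43 keratins and for 0.608% of all features. Because ABW 2 was singled out after its keratin values had been seen, these counts describe the pup and carry no test. The feature with the widest margin was Lgals7, which encodes galectin-7, a lectin of stratified epithelia. It read 8.20, 7.33 and 7.40 in the LBW pups and 8.10, 10.81 and 7.64 in the ABW pups, so that ABW 2 was 6.08-fold above the next pup. Other named features of the 15 were Apoa4, an apolipoprotein (margin 1.65), Or8h7b, an olfactory receptor (1.16), Gys2, the liver form of glycogen synthase (1.10), and Adrb3, the adipocyte adrenergic receptor (1.02), and 7 had no symbol. Adipocyte genes, 9 of 11 listed, averaged 0.99 above their medians in ABW 2 and 0.75 above in ABW 3, while epidermal keratins averaged 0.81 above in ABW 2 and 0.08 in ABW 3. Any part of fat or skin tissue in these values was not tested.

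**Figure D2:**
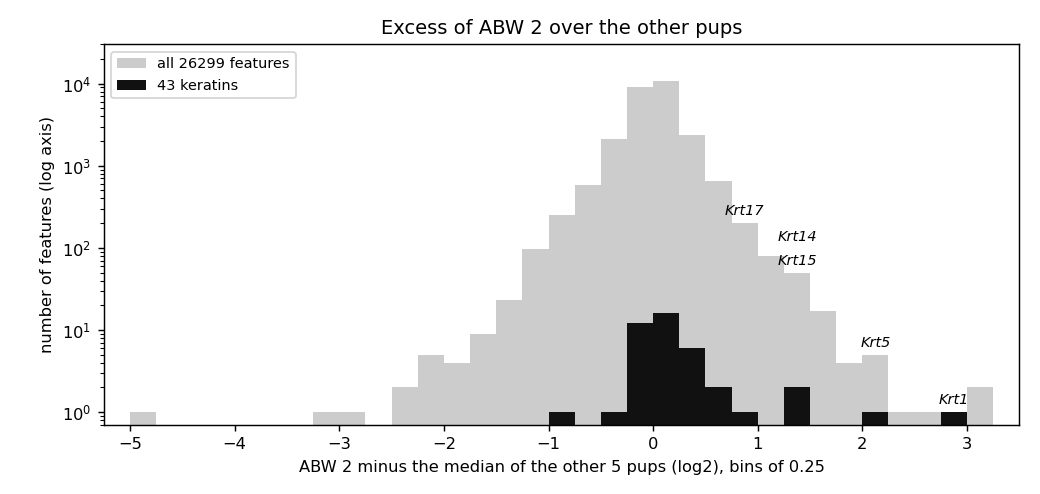
Number of features (vertical log axis) by the excess of ABW 2 over the median of the other 5 pups (horizontal axis, log2, bins of 0.25), for all 26299 features (grey) and the 43 keratins (black). Krt17, Krt15, Krt14, Krt5 and Krt1 lie at 0.85 to 2.90 on the right tail, and most keratins lie around 0.

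Mucosal and corneal keratins are those of moist stratified linings such as the oesophagus, and 3 matched a row. Krt13, the type I keratin of these linings, read 6.84, 6.97 and 6.63 in the LBW pups and 7.33, 7.12 and 7.19 in the ABW pups. Every LBW pup lay below every ABW pup, and the difference was -0.40 (SE 0.12, limma adjusted p = 0.306), at an unadjusted p of 0.0133. The fold, 1.32 in favour of ABW, stayed under the threshold. Krt4, its type II partner, read 7.53, 7.05 and 6.70 in the LBW pups and 6.83, 7.04 and 6.85 in the ABW pups, with a difference of 0.19 (SE 0.21). The differences of the partners thus had opposite signs, and only the values of Krt13 separated the groups. The difference of Krt4 was -0.032 without LBW 1, its highest pup. Krt76, of the palate, gave -0.18 and was highest in ABW 2.

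Simple epithelial keratins were all on the array, and none of the 5 passed the threshold. Krt8 read 6.72, 6.93 and 6.65 in the LBW pups and 6.40, 6.63 and 6.59 in the ABW pups. The groups did not overlap, by a narrow margin, and the difference was 0.22 (SE 0.11, limma adjusted p = 0.485), or 0.14 without LBW 2. Krt18, the partner of Krt8, read 7.37, 7.27 and 7.16 in the LBW pups and 7.18, 7.55 and 7.25 in the ABW pups, which overlapped. Krt7, of ducts and glands, ranged over 0.30 from 6.09 in ABW 1 to 6.39 in LBW 2. Krt20, of intestinal epithelium, ranged over 0.47. Krt19 varied most within the class, with 6.22, 6.05 and 7.23 in the LBW pups and 6.15, 6.95 and 6.77 in the ABW pups. It was highest in LBW 3, and its spread within LBW pups (SD 0.63) was wider than the difference of -0.12 between the groups. The class averaged 0.20 above its medians in ABW 2, and between -0.14 and 0.09 in the other pups.

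**Figure D3:**
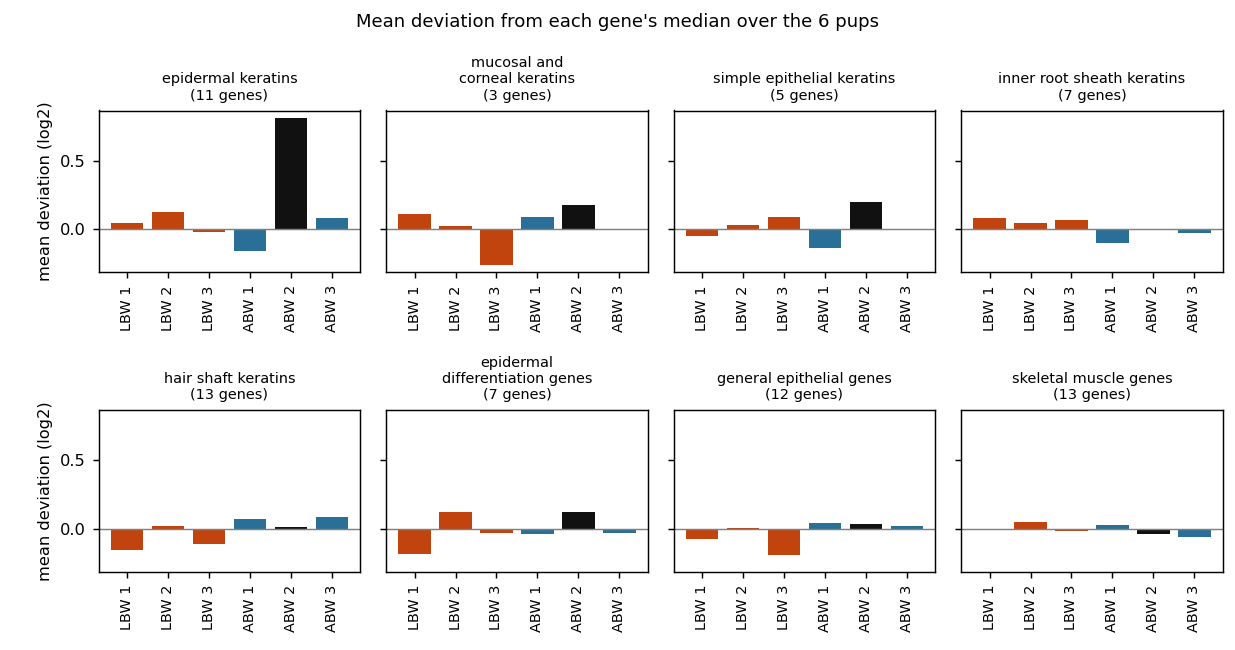
Mean deviation (vertical axis, log2) of the genes of a class from each gene's median over the 6 pups, for LBW pups (orange), ABW 1 and ABW 3 (blue) and ABW 2 (black), in 5 keratin classes and 3 lists of other genes. The epidermal keratins of ABW 2 stand at 0.81, and all other bars of the 8 panels lie between -0.26 and 0.20.

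Inner root sheath and companion layer keratins form the sleeve that guides the growing hair, and this class held the one gene past the threshold. Krt26, a type I keratin of the inner root sheath, read 7.20, 6.47 and 6.61 in the LBW pups and 5.42, 5.63 and 5.07 in the ABW pups. The lowest LBW pup was thus 0.84 above the highest ABW pup, ABW 2. LBW pups averaged 6.76 ± 0.39 (SD, n = 3) and ABW pups 5.37 ± 0.28, a 2.61-fold difference of 1.38 (SE 0.23, limma adjusted p = 0.214), at an unadjusted p of 0.000723. An exact permutation test gave p = 0.1, the smallest it allows. The call held when any 1 pup was left out, with differences between 1.16 and 1.53, and was 1.51 without ABW 2 (SE 0.25). The mean of Krt26 lay among the dimmest 25% of features (22.7th percentile). Groups that did not overlap with LBW higher were found for 3 keratins, Krt26, Krt8 and Krt77, and for 7.27% of all features. The 11 bone genes matched to a row had mean deviations from their medians of 2.31, 0.03 and 3.14 over the LBW pups, and the 6 neutrophil genes of 1.96, 0.33 and 1.96. LBW 2 was the lowest of the LBW pups in both lists and for Krt26. LBW 1 was the highest for Krt26 and LBW 3 for the bone genes, while the neutrophil genes stood at 1.96 in both of these pups. The part of these tissues in the values of Krt26 was not tested.

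Krt26 lies on chromosome 10 between Krt25 and Krt27, in a run of type I genes. The part of this run taken here reaches from Krt24 to Krt28, and further type I genes follow beyond Krt28. In GRCr8 the gene spans chr10:84777137-84791756 on the minus strand. Since Krt26 alone of this run passed the threshold, the 100 bases before a RefSeq start are given for Krt25, Krt26, Krt27 and Krt28. They are written 5′ to 3′ in the direction of transcription, with the letters TATAAA in capitals. For Krt25 and Krt26 that start lies within the gene's outer span, so it belongs to a shorter transcript. The windows are chr10:84771198-84771297 for Krt25, chr10:84787002-84787101 for Krt26, chr10:84800132-84800231 for Krt27 and chr10:84824858-84824957 for Krt28, all on the minus strand. That of Krt24, chr10:84733487-84733586 on the minus strand, held no TATAAA on either strand and is not printed.
Krt25: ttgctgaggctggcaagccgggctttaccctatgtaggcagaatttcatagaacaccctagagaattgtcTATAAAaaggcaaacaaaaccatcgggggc
Krt26: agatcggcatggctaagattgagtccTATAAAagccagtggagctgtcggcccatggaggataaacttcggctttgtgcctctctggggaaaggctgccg
Krt27: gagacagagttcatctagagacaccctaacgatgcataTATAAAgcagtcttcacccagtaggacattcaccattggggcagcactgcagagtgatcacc
Krt28: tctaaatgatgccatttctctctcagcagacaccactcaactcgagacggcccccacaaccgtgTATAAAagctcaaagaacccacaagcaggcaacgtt
The letters TATAAA began 30 bases before the start for Krt25, 74 for Krt26, 62 for Krt27 and 36 for Krt28. Of the 33469 promoters in the RefSeq table, 3.86% held TATAAA in the same window, and 5.78% held it on either strand. Of the 31 keratins with an entry, 13 held it, all 13 in the direction of transcription. Krt1, Krt14, Krt15 and Krt17 were among the 12 without an entry. The window of Krt5, at chr7:134730570-134730669 on the minus strand, is shown because this gene carried the pattern of ABW 2, and it held no TATAAA on either strand.
Krt5: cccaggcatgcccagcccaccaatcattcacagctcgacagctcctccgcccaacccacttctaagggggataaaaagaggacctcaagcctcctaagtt
A match is a description of letters and not of a site in use.

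The neighbours of Krt26 did not share its difference. Krt25 read 6.19, 6.28 and 6.24 in the LBW pups and 6.24, 6.47 and 6.40 in the ABW pups, a difference of -0.13 (SE 0.09, limma adjusted p = 0.614). Krt27 gave 0.01 (SE 0.16), with 6.12, 6.30 and 6.64 in the LBW pups and 6.12, 6.44 and 6.45 in the ABW pups. Krt28 gave -0.09, and Krt24, of the epidermal class, gave -0.02. All 4 overlapped between the groups, as did all features but 17.4%. None reached an unadjusted limma p under 0.05, which 12.4% of all features reached. Krt25, Krt27 and Krt28 are themselves inner root sheath keratins. Krt72, of the inner root sheath cuticle, read 6.69, 6.51 and 6.54 in the LBW pups and 6.84, 6.40 and 6.70 in the ABW pups. Krt75, of the companion layer, was lower in each LBW pup than in any ABW pup, by a difference of -0.27 (SE 0.12, limma adjusted p = 0.436), and Krt73 gave -0.08. The median over the 7 genes was -0.08, so that Krt26 stood alone in its class.

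**Figure D4:**
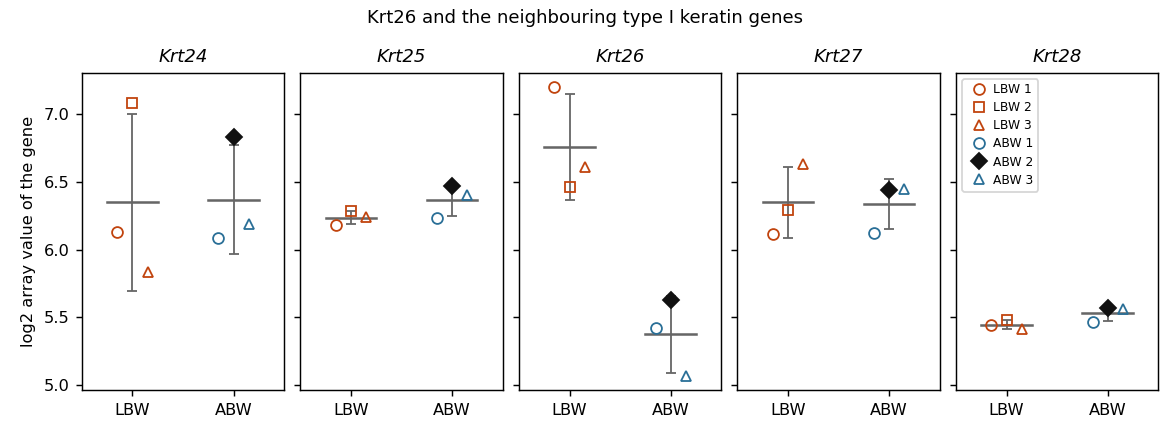
Log2 array value (vertical axis) of Krt26 and of Krt24, Krt25, Krt27 and Krt28, which lie next to it on chromosome 10, in the 3 LBW and 3 ABW pups (symbols), with the mean and SD of each group (grey). Krt26 separates the groups, by 1.38 between the means, and the 4 neighbours overlap.

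Hair shaft keratins, the hard keratins of cortex and cuticle, were represented by 13 genes, and none passed the threshold. The LBW mean was below the ABW mean for 11 of them, with a median of -0.14, and for 55.6% of all features. Krt33a had the largest negative difference, with 6.15, 6.77 and 5.72 in the LBW pups and 6.92, 6.44 and 6.53 in the ABW pups. LBW 2 overlapped the ABW pups, and the difference was -0.42 (SE 0.28, limma adjusted p = 0.586). Without LBW 2 it was -0.70 with an unadjusted p of 0.0158 by limma, past the fold threshold as well, and without LBW 3 it was -0.17. Krt31, another cortex keratin, gave -0.38, with ABW 1 as the highest pup. The genes with the highest signal in the class, Krt34 and Krt35, ranged from 7.72 to 8.33 and from 7.55 to 8.31 over the 6 pups. Their differences were -0.21 and -0.23, and both groups overlapped for each. Krt36 and Krt40 had every LBW pup below every ABW pup, by differences of -0.16 and -0.21, and together with Krt13, Krt42 and Krt75 they made 5 keratins without overlap in that direction, against 10.1% of all features. The others, Krt33b, Krt39, Krt81, Krt82, Krt84, Krt85 and Krt86, had unadjusted limma p-values between 0.286 and 0.879. ABW 2 averaged 0.02 above the class medians, far from its 0.81 in the epidermal class. No hair shaft or inner root sheath keratin had an excess of 0.5 or more in that pup, and only 3.86% of all features had one.

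The 4 other keratins gave small differences. Krt88 read 6.74, 6.86 and 7.13 in the LBW pups and from 6.88 in ABW 2 to 7.37 in ABW 3 in the ABW pups, and Krt90 read 6.20, 6.58 and 6.25 against 6.52, 6.63 and 6.32. Neither separated the groups. Krt42 lay lower in all LBW pups by -0.12, and Krt23 gave 0.06. Type I and type II genes as wholes had medians of -0.12 over 24 genes and -0.07 over 19.

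**Figure D5:**
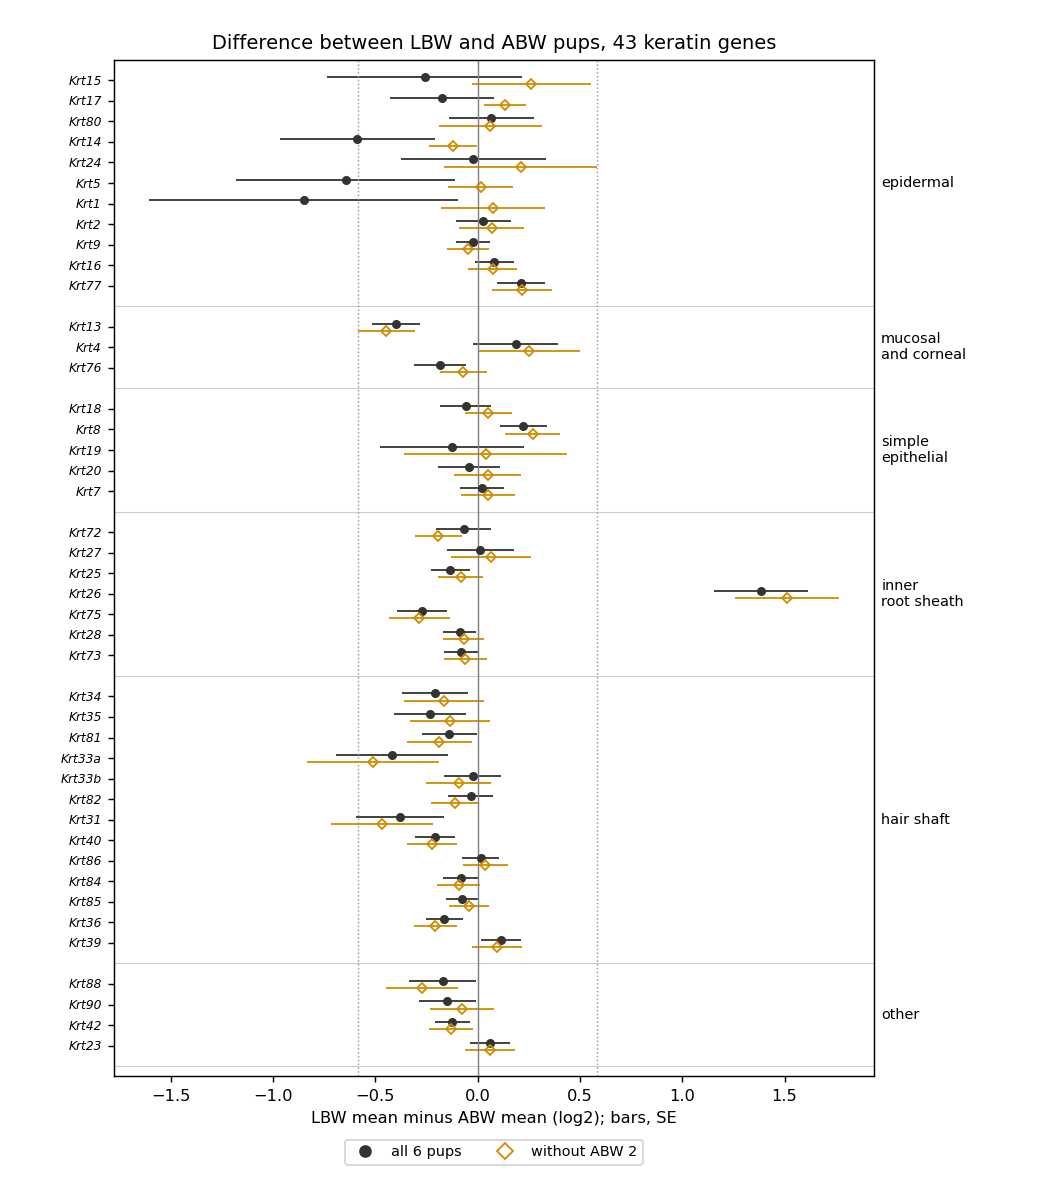
LBW mean minus ABW mean (horizontal axis, log2) with its SE for the 43 keratins, from all 6 pups (filled circles) and without ABW 2 (open diamonds), where dotted lines mark a fold of 1.5. The negative values of Krt1, Krt5, Krt14, Krt15 and Krt17 move to between -0.12 and 0.26 without ABW 2, and Krt26 stays at 1.38 and 1.51.

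Genes other than keratins that belong to the same epithelia were read beside them. Of 34 listed genes of epidermal differentiation 7 matched a row, and none of these passed the threshold. Serpinb5, maspin, read 5.76, 6.21 and 5.67 in the LBW pups and 6.16, 6.42 and 5.85 in the ABW pups. ABW 2 was its highest pup, 1.49-fold above the median of the other 5. Calml3, a calmodulin-like protein of keratinocytes, read 6.25, 7.17 and 6.32 in the LBW pups and 6.70, 7.12 and 6.66 in the ABW pups, with ABW 2 1.38-fold above that median and LBW 2 higher still. Sbsn, suprabasin, had the largest difference between the groups and read 7.87, 7.97 and 8.65 in the LBW pups and 7.18, 8.04 and 7.74 in the ABW pups. Its value in ABW 2 lay within those of the LBW pups, and Tgm1, which cross-links the cornified envelope, stayed between 6.69 and 6.96. Over the 7 genes the excess of ABW 2 ran from -0.17 for Alox12b to 0.57 for Serpinb5. The list averaged 0.12 above its medians in ABW 2 and 0.13 in LBW 2, against 0.81 and 0.12 for epidermal keratins. Genes of the granular layer such as loricrin and filaggrin, and all 9 melanocyte genes, matched no row by accession and were not analysed here. Whether they lie among the rows without a symbol was not examined.

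Of 25 listed genes of keratinocyte adhesion and the basal layer 6 matched a row. Tp63, a regulator of stratified epithelia, read 8.82, 8.90 and 8.47 in the LBW pups and 7.93, 8.96 and 9.58 in the ABW pups, with ABW 3 as the highest. Plec, a cytolinker shared with muscle, had an unadjusted limma p of 0.00435 with a difference of 0.53, under the fold threshold. Dsc2 gave -0.46 (SE 0.20, limma adjusted p = 0.431) and was highest in ABW 1. The list had 0 genes past the threshold and averaged 0.07 above its medians in ABW 2, against 0.81 for epidermal keratins. Among 12 of 25 listed general epithelial genes, 1 was past the threshold, lower in LBW pups, as were 1.89% of all features. This gene, Cdh1, E-cadherin of epithelial junctions, read 8.01, 8.01 and 7.50 in the LBW pups and 8.70, 8.54 and 8.33 in the ABW pups, and fell by 0.69 (SE 0.17, limma adjusted p = 0.276). Here all 3 ABW pups were above the LBW pups, and ABW 2 was not the highest. Epcam, the adhesion molecule of simple epithelia, stayed between 5.09 and 5.40. The hair follicle genes outside the keratins, 9 of 36 listed, and the mesothelial genes, 4 of 8, had no member past the threshold, and averaged 0.03 above their medians in ABW 2 in both lists. The intermediate filament genes of muscle and other tissues, 11 of 17 listed, also had none past it. Desmin (Des), the filament of muscle fibres, read 14.06, 14.22 and 14.06 in the LBW pups and 13.99, 13.88 and 13.80 in the ABW pups. Every LBW pup lay above every ABW pup for 3 of the 11, Des, Nes and Lmna, against 7.27% of all features. The reverse held for 0 of them, against 10.1%. Nes gave a difference of 0.45 (limma adjusted p = 0.274) and Lmna of 0.37 (limma adjusted p = 0.277).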

How the data were processed

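Skeletal muscle RNA of 6 pups was hybridised to NimbleGen arrays, 1 pup an array. The deposited table holds log2 values that the authors normalised, by RMA per the submitters' processing notes, for transcripts of build RGSC3.4. Depth has no counterpart on arrays, so the number of pups limits precision. All 26419 rows and 6 columns were used, and 0 columns belonged to other samples.

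Rows were named through the accessions of the RefSeq table of GRCr8, which matched 9747 rows (36.9%), rows of a symbol were averaged, and the 26299 features were fitted with limma 3.58.1 in R 4.3.3 (lmFit, eBayes, LBW minus ABW, Benjamini-Hochberg over all features). The call was an unadjusted p under 0.05 with a fold of at least 1.5, after the study's methods, whose test was taken as Student's and is called the methods' test. The steps were tested on simulated data. The labels do not say whether pups shared a litter, so p-values measure the spread between these pups.

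Members, classes and gene lists were chosen with earlier results of these data known. Values per pup were given for keratins past the threshold, the 4 largest differences each way, the main partner pairs and the 2 brightest of each class. From the comparison lists at most 4 genes that moved most and 4 of the brightest were named. Beyond this rule, Krt20, Krt24, Krt25, Krt28, Krt31, Krt75, Epcam and the genes that set ABW 2 apart were chosen after their values were seen. Alternatives were leaving out each pup, quantile normalisation, median centring, a filter on dim features, single rows, a replicate block, other variance settings, array weights and the methods' test.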

Additional observations from a re-analysis of the deposited data

How the results depend on the processing

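Krt26 was the one keratin past the threshold in all alternatives run but those named here. Krt33a joined it without LBW 2 (2 keratins), also without LBW 2 and ABW 2 together (2, an alternative added after seeing the data), and none was left without the dimmest 25% of features (0 keratins), a filter that removed Krt26 itself. Leaving out 1 pup gave 1 to 2 keratins and 798 to 1546 features past the threshold, and 0 to 125 features at an adjusted p under 0.05, where the 125 came without LBW 2. The methods' test gave 584 features against 1124, and a fold of at least 2 gave 335. The median over all keratins lay between -0.13 and -0.05 in all alternatives run.

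Of 20 keratins followed under 16 alternatives, 10 changed sign in some. Leaving out 1 pup gave ranges of -1.44 to 0.075 for Krt1, -1.05 to 0.017 for Krt5, -0.66 to 0.26 for Krt15, -0.35 to 0.13 for Krt17 and -0.13 to 0.053 for Krt18, where the highest value, and the only positive one, came without ABW 2. The ranges were -0.49 to 0.099 for Krt19 (positive without LBW 1, LBW 2 or ABW 2), -0.032 to 0.38 for Krt4 (negative without LBW 1), -0.057 to 0.065 for Krt7 (negative without LBW 2 or ABW 1), -0.19 to 0.028 for Krt72 (positive without ABW 1) and -0.13 to 0.13 for Krt27 (negative without LBW 3 or ABW 1). Array weights gave 0.0001 for Krt72 and -0.078 for Krt27, and centring on array medians gave -0.0003 for Krt27. The cause was not tested. Pups of the same number deviated from their group means with small correlations of 0.087, 0.10 and 0.055, each pup best with its own number. The design gives no pairing, and whether the numbers mark pairs was not tested. With the replicate number as a block, 1 keratin and 1230 features passed the threshold, so the pairing by number changed no keratin call.

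The main limits are the 3 pups a group, the low signal of keratins in muscle and the rows without a symbol. Probe sequences were not used here, so signal shared between similar keratins was not tested.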

Other observations

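Among the 15 features in which ABW 2 exceeded the next pup by at least 1 log2 unit, 8 had a symbol and 7 had none, and the feature without a symbol that had the widest margin stood 5.10-fold above the next pup. LBW 3 and LBW 1 exceeded the other pups in this way for 65 and 33 features, ABW 1 for 15, ABW 3 for 13 and LBW 2 for 5. In the comparison of LBW with ABW pups, 3 of 9 adipocyte genes passed the threshold as lower in LBW pups, against 1.89% of all features, and 6 of 11 bone genes and 5 of 6 neutrophil genes as higher, against 2.38%. Of the 13 skeletal muscle genes 0 passed at an unadjusted p under 0.05 by limma.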
